A study of Arabidopsis thaliana with 4 samples.

Results

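The transcripts of Arabidopsis thaliana MM2d cells on day 5 after subculture were compared with those on day 1, passing over the sample of day 3. MM2d is a cell line grown as a suspension in liquid medium. The comparison uses 2 of the 4 arrays of a growth course that was sampled on days 1, 3, 5 and 7. Every non-control probe set enters it, 22746 in all, and its measure is the log2 of the day 5 signal over the day 1 signal. A signal below 25 was raised to 25, and a probe set counts as measured where it reached 25 on either array, which held for 14378. A ratio against a signal below 25 is therefore a bound and is written as at least N-fold.

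The cells of both days were of the same kind and differed in the time since dilution. Of a suspension that had reached early stationary phase 7 days after its own last subculture, 5 ml went into 100 ml of new MS medium. It held sucrose at 3%, the auxin NAA at 0.5 mg/l and the cytokinin kinetin at 0.05 mg/l. The cultures were rotated without light at 27 °C and 130 rpm. Each day is 1 ATH1 array of total RNA labelled with biotin, so there is no replicate and no test, and each difference is one between single arrays. Days 3 and 7 are given beside the members to show their whole course. The labels do not say whether the samples came from 1 flask. In bulk RNA, fewer cells of a kind and less RNA per cell cannot be told apart, and a dark suspension culture is a model without organs or light.

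A suspension culture that is diluted into new medium first restarts growth and then uses up sugar, phosphate and nitrogen while the cells divide and enlarge. Growing plant cells invest much of their RNA in making ribosomes. Cells short of nutrients can take up and recover phosphate with secreted phosphatases, break down their own contents by autophagy and in the vacuole, and alter their walls with peroxidases, expansins and pectin enzymes.

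On day 5, the transcripts of ribosomal proteins, of ribosome assembly and of several chaperones were less abundant than on day 1. Measured genes of phosphate starvation, some ATG8 autophagy genes, some vacuolar proteases, several wall enzymes and 7 of 13 mitochondrion-encoded genes were at least 2-fold more abundant. Over all measured genes, 8.24% were higher by as much. Of the 6 measured phosphate starvation genes, 5 reached 25 only on day 5, so their ratios could not lie below 0. Before the list was closed, 3 of the 6 had been seen among the largest differences. Of 15 measured low-oxygen genes, 2 were at least 2-fold higher and 2 lower by as much on day 5. In all 1308 probe sets (9.10% of those measured) were at least 2-fold higher on day 5 and 704 (4.90%) at least 2-fold lower. At least 4-fold differences numbered 291 upward and 47 downward, and at least 8-fold differences 79 and 4. Of the 1308 higher probe sets, 291 had a day 1 signal below 25, while 46 of the 704 lower ones had a day 5 signal below 25.

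The split between higher and lower depends on how the arrays are scaled. As deposited, 65.0% of the 2-fold differences were upward. Setting both arrays to the same median gave 858 higher and 1364 lower probe sets (38.6% upward), and setting them to the same 75th percentile gave 1064 and 1006 (51.4%). Quantile normalization gave 1039 and 748 (58.1%), and scaling by the hybridisation controls gave 1180 and 830 (58.7%). These settings moved the median log2 ratio of all probe sets by -0.23, -0.12, -0.13 and -0.06 from its deposited 0.07. Counts of higher against lower probe sets thus have no settled majority, whereas the group medians given below as higher or lower kept their sign under all 4 scalings. Of the 38 gene lists with at least 4 measured genes, 7 changed sign under a scaling, and their deposited medians lay within 0.22 of 0.

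The arrays were alike in general measures, with 57.3% of probe sets at 25 or more on day 1 and 61.2% on day 5, and median signals of 36.3 and 43.2. The 3' to 5' signal ratio, a measure of RNA integrity, was 1.45 on day 1 and 1.18 on day 5 for actin and 1.59 and 1.30 for ubiquitin, against 0.979 and 0.996 for GAPDH. Its part in the differences was not tested. Nuclear photosynthesis genes, which mark green cells, had 7 of 14 genes measured and a median log2 ratio of -0.02, with no gene at least 2-fold different. RCA, the activase of Rubisco, had signals of 152 and 150. For 88 genes 2 probe sets were measured, which should give equal ratios. The SD of a ratio from these pairs was 0.57 on the log2 scale, against 0.40 over 95 genes for day 7 against day 3. Of 28 such pairs with a 2-fold probe set, the partner lay on the same side of 0 in 24 and was 2-fold different the same way in 8. A shift that is equal for both probe sets of a gene leaves no trace in this SD. Whether labelling or RNA integrity acted unequally on them was not tested.

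**Figure D1:**
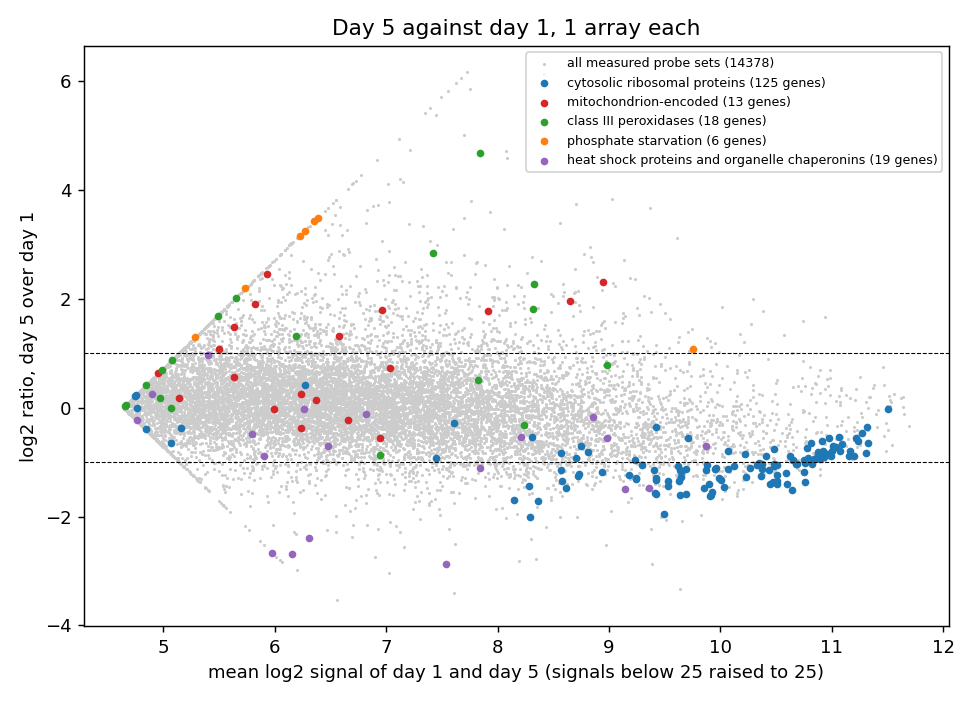
Log2 ratio of day 5 over day 1 (vertical axis) against the mean log2 signal of both arrays (horizontal axis), 1 point a probe set, with 5 gene lists in colour. Dashed lines mark 2-fold; the straight upper and lower edges at the left are ratios against the floor of 25, and the ribosomal protein genes lie at high signal mostly below 0.

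Lower probe sets were more frequent among the abundant ones than among the dim ones. Among the 1548 probe sets whose higher signal was at least 500, 17.7% were at least 2-fold lower on day 5 and 11.8% at least 2-fold higher. Among the 3436 between 50 and 100, 2.82% were lower and 11% higher. Of the 274 abundant lower probe sets, 146 have 1 annotated gene, and 70 of these 146 belong to cytosolic ribosomal proteins. The plot of log2 ratio against mean signal shows these as a band under 0 at the right.

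Cytosolic ribosomal proteins form the translating ribosome together with ribosomal RNA. The median log2 ratio over the 125 measured genes was -1.04 (quartiles -1.29 and -0.80), where the median of all 7997 measured genes was 0.07. On day 5, 70 were at least 2-fold lower and 0 at least 2-fold higher, where 5.03% of all genes were lower and 8.24% higher. The median lay between -1.29 and -0.73 over the 4 scalings. The members named here are printed by locus code, since the annotation gives them no symbol.

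AT5G59240 had the largest difference in the list, with signals of 630, 473, 156 and 135 on days 1, 3, 5 and 7, a 4.04-fold lower signal on day 5. AT3G06700 had 1416, 640, 367 and 134 on the same days and was 3.85-fold lower. AT5G48760 (3.29-fold) and AT4G30800 (3.23-fold) came next. All 4 had their highest signal on day 1 and their lowest on day 7. The 3 genes above 0 were dim. AT2G16360 had signals of 67.1 on day 1 and 89.3 on day 5, and AT5G09500 and AT3G48960 lay below 25 on day 1 and below 30 on day 5.

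Nuclear genes for ribosomal proteins of mitochondria and plastids were also lower. All 13 measured lay below 0, 7 were at least 2-fold lower, and the median was -1.03. Of the 13, 4 had been seen among the largest differences, and the other 9 had a median of -0.80. AT1G77750 had signals of 485, 320, 133 and 65.9 on days 1, 3, 5 and 7, AT3G18760 395, 313, 125 and 77.1, and AT5G55140 273, 198, 93.1 and 57.9. Each of these courses was in falling order of signal over the 4 arrays. HLL, a mitochondrial ribosomal protein named for its role in ovule development, had a log2 ratio of -0.80.

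Genes of ribosome assembly and of nuclear RNA polymerases followed, with a median of -0.90 over 51 genes. Of these, 19 were at least 2-fold lower, 0 at least 2-fold higher, and 49 lay below 0. AT4G04940 had signals of 193 on day 1 and 62.4 on day 5 (3.09-fold lower), AT3G09720 225 and 75.5 (2.99-fold), AT5G20160 1929 and 675 (2.86-fold) and AT3G10530 499 and 183 (2.73-fold). AT5G20160 differs from the others in its day 3 signal of 1959, as high as on day 1. Translation factors, which load and move ribosomes along the message, had 9 of 12 genes below 0 and a median of -0.45, but 0 were at least 2-fold different. EIF4A-2, an RNA helicase of initiation, had signals of 949 and 812.

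The proteasome, which degrades proteins marked with ubiquitin, had 5 measured genes of 31 listed, and all 5 lay below 0 (median -0.99). RPN12a, a subunit of its regulatory lid, had signals of 889, 639, 349 and 357 on days 1, 3, 5 and 7 and was 2.55-fold lower on day 5. AT5G23540 had 618, 375, 218 and 254 and was 2.84-fold lower. AT4G24820, AT1G45000 and AT2G32730 had log2 ratios of -0.99, -0.74 and -0.47. Both of the first named had lower signals on days 5 and 7 than on days 1 and 3.

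Heat shock proteins and organelle chaperonins, which fold other proteins, were lower on day 5. Of 19 measured genes, 7 were at least 2-fold lower and 0 at least 2-fold higher, with a median of -0.71. Over all genes, 5.03% were lower by as much. The list was closed after 4 of the 19 had been seen among the largest differences. For the other 15 the median was -0.53, and 3 of these passed the limit downward. AT1G23100 had signals of 503, 222, 68.3 and 13.4 on days 1, 3, 5 and 7, and was 7.36-fold lower on day 5. AT2G29500 had 181, 57.7, 28.1 and 25.2 and was 6.45-fold lower. AT1G53540 had 159 on day 1 and 12.9 on day 5, at least 6.38-fold lower. All 3 were already lower on day 3 than on day 1.

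Other chaperones had smaller differences. AT1G54050 was 5.27-fold lower, with signals of 182, 146, 34.5 and 41.1. Cpn60beta2, a subunit of the plastid chaperonin, had signals of 947 on day 1 and 338 on day 5, 2.80-fold lower, and Fes1A, which assists cytosolic HSP70, had 336 and 157. Hop3, a co-chaperone that links HSP70 and HSP90, was at -0.71 log2. AT5G37670 went the other way, with signals of 30.3 and 59.0. Folding genes of the endoplasmic reticulum had a median of -0.11 over 14 genes, with 0 at least 2-fold different in either direction. The difference between the chaperone lists was not tested.

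**Figure D2:**
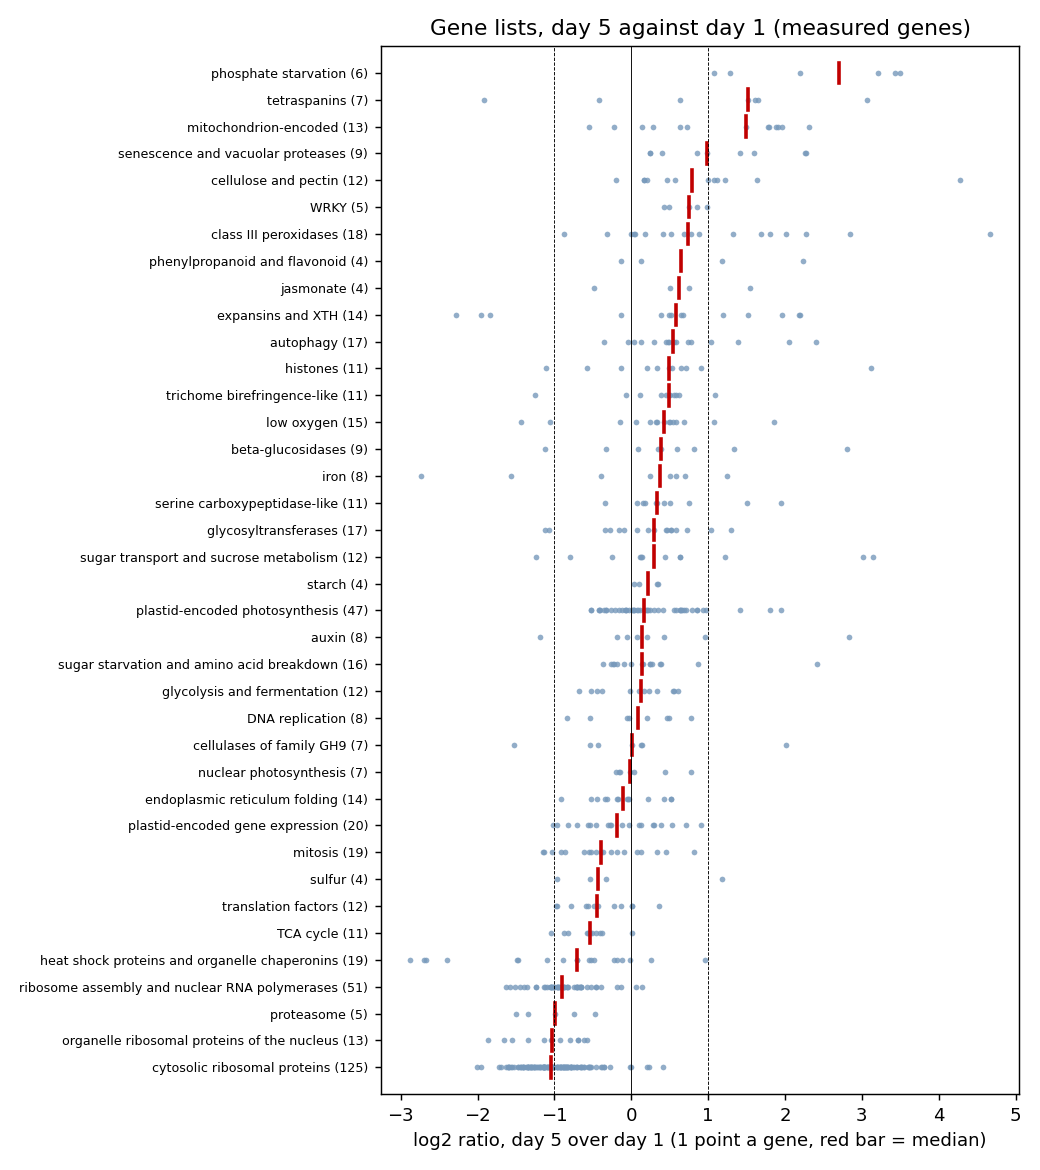
Log2 ratio of day 5 over day 1 for the measured genes of each list with at least 4 of them, 1 point a gene, with the number of genes in brackets and the list median as a red bar. Dashed lines mark 2-fold; ribosomal protein, ribosome assembly and proteasome lists lie at the bottom, and phosphate starvation, tetraspanins and mitochondrion-encoded genes at the top.

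Phosphate starvation genes, which plant cells switch on when phosphate runs short, had the highest median of any list with at least 4 measured genes, 2.70. Only 10 of the 47 listed genes have an annotated probe set, and 4 of those 10 stayed below 25 on both arrays. Each of the 6 measured was 2-fold or more higher on day 5, but 5 passed the limit of 25 only through day 5, so that their number above 0 was set by the limit. The genes were listed from general knowledge of locus codes, and 3 of the 6 had been seen among the largest differences before the list was closed. The other 3 had a median of 1.29.

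AT5G20790 had signals of 1.95, 1.46, 281 and 276 on days 1, 3, 5 and 7, at least 11.3-fold higher on day 5. AT1G08310 had 1.27, 2.26, 269 and 492, at least 10.8-fold. AT3G44510 had 1.68, 1.70, 224 and 247 by one probe set and 1.78, 1.52, 238 and 196 by its other. For these 3 genes days 1 and 3 lay below the limit and days 5 and 7 far above it, and the 2 probe sets of AT3G44510 gave close values.

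AT1G67600 had signals of 8.39, 6.44, 114 and 175 on days 1, 3, 5 and 7, at least 4.56-fold higher on day 5, and AT1G13750 had 5.17, 2.89, 61.2 and 92.4, at least 2.45-fold. VTC4, an inositol and galactose phosphatase that acts in ascorbate synthesis, was measured on all arrays, with 592, 703, 1253 and 1410, and was 2.11-fold higher. PAP20, AT1G14220, AT2G38920 and SAL2 were the 4 listed genes not measured. LPR2, a multicopper oxidase of the root response to low phosphate that is not on the list, had 90.8, 228, 382 and 790 and was 4.20-fold higher.

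Other nutrient lists were short. The list named nitrogen uptake and assimilation had 3 measured genes, too few for a median, and all 3 were at least 2-fold higher on day 5. Of these, 2 had been seen among the largest differences before the list was closed. AT1G68670 and AT1G25550 were listed from general knowledge of their locus codes, and only NRT2.5 is given here as a transporter. The values therefore do not describe nitrogen uptake or assimilation as a group. AT1G68670 had signals of 58.0, 93.3, 289 and 411, AT1G25550 57.9, 115, 275 and 324, and NRT2.5, a nitrate transporter, 63.3, 112, 135 and 80.4. The first and second were highest on day 7, and NRT2.5 was highest on day 5.

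Among 4 sulfur genes, APS4, an ATP sulfurylase of sulfate assimilation, was 2.26-fold higher with 141 and 318, while APS3 of the same family was at -0.54 log2, AT1G12030 at -0.96 and the beta-glucosidase BGLU28 at -0.33. BGLU28 had signals of 2368, 558, 1890 and 2378, so it was low on day 3 alone.

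Iron genes went both ways, with a median of 0.37 over 8 genes. AT1G47400 had signals of 167, 15.1, 11.8 and 16.5 on days 1, 3, 5 and 7 and was at least 6.66-fold lower on day 5. AT5G05250 had 95.9, 63.4, 32.4 and 18.5 and was 2.96-fold lower. The transcription factor bHLH121, which is needed for the iron deficiency response, had 46.8, 122, 111 and 175 and was 2.37-fold higher. Only day 1 was above 25 for AT1G47400. Among the related regulators, bHLH115 had a log2 ratio of 0.70, ILR3 0.58, bHLH104 at least 0.50, bHLH34 0.24 and PYE, which represses iron storage and uptake genes, -0.39.

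Autophagy genes were higher as a group. Of 17 measured, 15 lay above 0 and 4 (23.5%) reached the 2-fold limit upward, where 8.24% of all genes did. The list median was 0.54, and it lay between 0.31 and 0.48 over the 4 scalings. AT3G18770 was measured only on day 5 and could not lie below 0. The list was closed after ATG8E had been seen among the largest differences. For the other 16 the median was 0.51, and 3 of these passed the limit upward. The ATG8 proteins, which are attached to the forming autophagosome membrane, spread widely. ATG8E had signals of 69.8, 182, 367 and 611 on days 1, 3, 5 and 7 and was 5.26-fold higher on day 5, and ATG8F had 149, 215, 613 and 739 and was 4.13-fold higher. APG8A had 80.1, 144, 210 and 262 (2.62-fold). All 3 were in rising order of signal over the 4 arrays. ATG8C had a log2 ratio of 0.74, APG8H 0.58, ATG8D 0.48 and ATG8G -0.36, so the ratios of the family lay on both sides of 0. AT5G66930 was 2.05-fold higher.

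The list of senescence genes and vacuolar proteases had 9 measured genes, and its median was 0.99. Of the 9, 4 (44.4%) reached the 2-fold limit upward, where 8.24% of all genes did. All 9 lay above 0, but 2 of them were measured only on day 5 and could not lie below it. The list was closed after 2 of the 9 had been seen among the largest differences. For the other 7 the median was 0.85, and 2 of these passed the limit upward. GAMMA-VPE, a protease that matures vacuolar enzymes, had signals of 175, 214, 843 and 1148 and was 4.82-fold higher on day 5. AT4G16190 had 29.1, 16.7, 139 and 87.2 (4.79-fold), and SAG101, a lipase-like protein of senescence and defence, had 71.6, 54.2, 217 and 227 (3.04-fold). In all 3 the days 5 and 7 lay above the days 1 and 3. AT3G19400 was 2.68-fold higher.

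WRKY transcription factors, several of which act in senescence and defence, had 5 of 6 listed genes measured. WRKY6 was at 0.99 log2 with signals of 108 and 214, WRKY47 at 0.75, WRKY20 at 0.49, WRKY22 at 0.43 and WRKY53 at least 0.85. None reached 2-fold. All 5 lay above 0, but WRKY53 was measured only on day 5 and could not lie below 0. The median of the serine carboxypeptidase-like genes was 0.33, with scpl48 2.84-fold and scpl46 at least 3.86-fold higher. Of 29 listed genes of the family, 11 were measured.

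Class III peroxidases, secreted enzymes that cross-link or loosen wall polymers, had 18 of 55 genes measured, 7 of them only on day 5. The median was 0.74, with 7 genes at least 2-fold higher and 0 lower by as much. Over all genes, 8.24% were higher by as much. The genes measured only on day 5 could not lie below 0. The list was closed after 3 of the 18 had been seen among the largest differences. For the other 15 the median was 0.51, and 4 of these passed the limit upward. A floor of 10 moved the list's median to 0.4, and a floor of 50 moved it to 1.01. AT1G71695 had signals of 45.6, 16.4, 1158 and 1026 on days 1, 3, 5 and 7 and was 25.4-fold higher on day 5. AT5G17820 had 63.8, 136, 460 and 893 (7.20-fold), and PRX52, which acts in lignin formation, had 146, 306, 703 and 1050 (4.82-fold). AT3G21770 had 9.40, 42.1, 101 and 67.7 and was at least 4.02-fold higher. AT1G71695 was far higher on days 5 and 7 than on days 1 and 3, while AT5G17820 and PRX52 were in rising order.

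Expansins, which loosen the wall, and xyloglucan transglycosylases (XTH), which cut and rejoin wall xyloglucan, included large differences in both directions. Of 14 measured, 5 were at least 2-fold higher and 3 lower by as much. XTH19 had signals of 119, 152, 547 and 707 on days 1, 3, 5 and 7 and was 4.58-fold higher on day 5, whereas XTH20 of the same family had 200, 202, 56.0 and 24.4 and was 3.58-fold lower. EXLA2, an expansin-like protein, had 52.8, 50.4, 238 and 289 (4.52-fold higher). These 3 genes showed little difference between days 1 and 3.

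EXPA15 had signals of 206, 178, 42.4 and 39.6 and was 4.87-fold lower on day 5, and EXPB3 had 570, 432, 146 and 198 and was 3.89-fold lower. EXPA20 had 29.5, 70, 114 and 86.6 and was 3.88-fold higher, EXGT-A3 was 2.87-fold and EXLA1 2.28-fold higher. On days 5 and 7 the alpha-expansin EXPA15 was therefore lower and EXPA20 higher than on day 1. Of the GH9 cellulases, GH9C2 had 666, 594, 232 and 623 and was 2.88-fold lower on day 5, so it was low on that day alone. GH9B6 had 1.48 and 101, at least 4.03-fold higher, and the other 5 measured cellulases were within 2-fold.

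**Figure D3:**
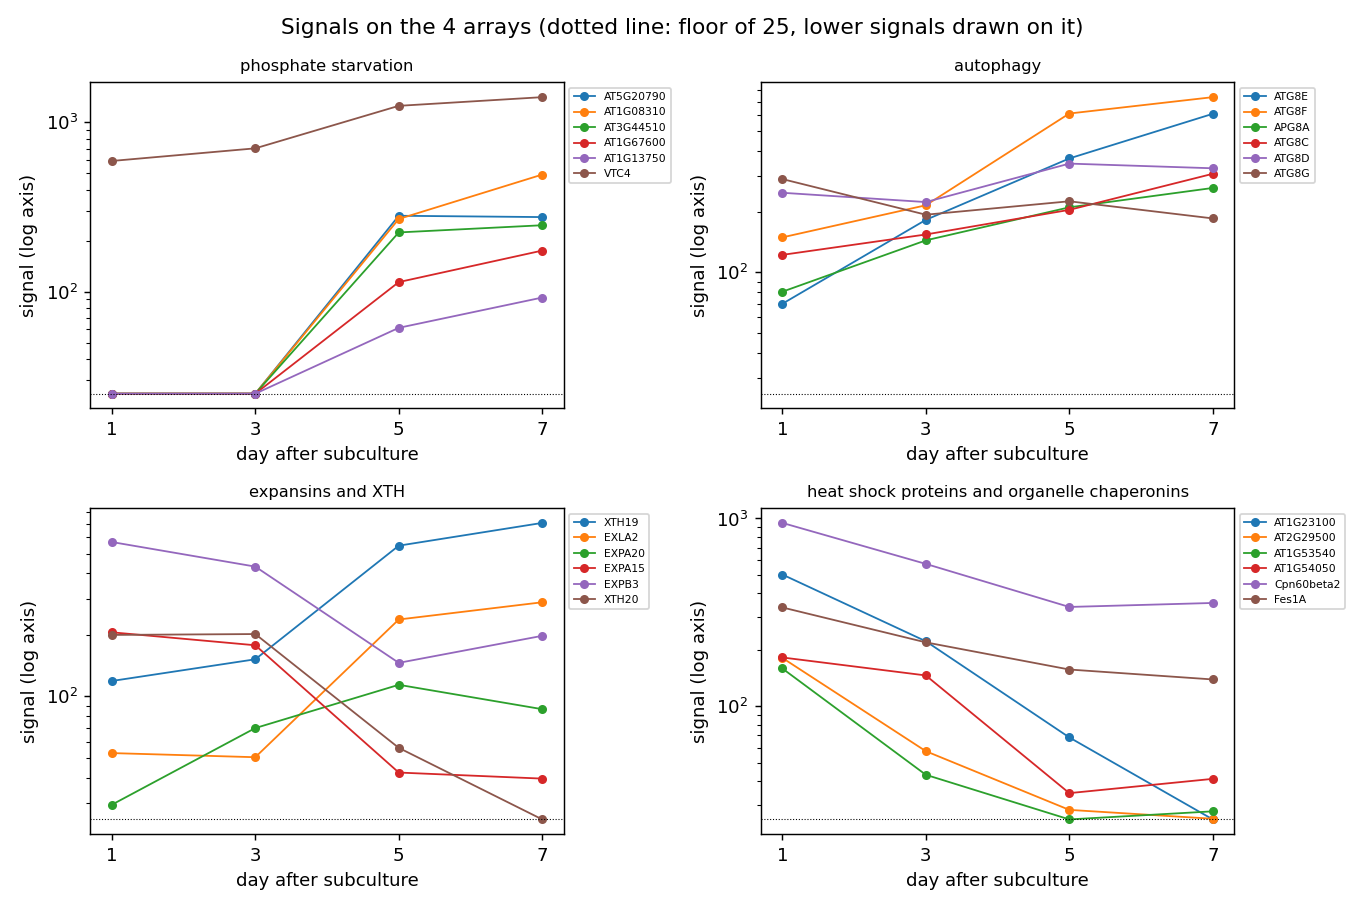
Signals on the 4 arrays, log axis, for members of 4 lists by day after subculture, 1 array a day; signals below 25 are drawn at 25 (dotted line). The phosphate starvation genes other than VTC4 leave the floor on day 5, ATG8E, ATG8F and APG8A lie in rising order, XTH19 and XTH20 part between days 3 and 5, and the chaperones are highest on day 1.

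Of 12 measured genes of polysaccharide synthesis and pectin, 6 (50%) reached the 2-fold limit upward and 0 downward. Over all genes the shares were 8.24% and 5.03%. The list median was 0.79. The list was closed after 1 of the 12 had been seen among the largest differences. For the other 11 the median was 0.57, and 5 of these passed the limit upward. PMEPCRF, a pectin methylesterase, had signals of 18.8, 111, 482 and 569 on days 1, 3, 5 and 7 and was at least 19.3-fold higher on day 5. Among the CSLC glucan synthases, which make the xyloglucan backbone, CSLC12 had 65.7 and 204 (3.11-fold higher) and CSLC5 84.9 and 198 (2.33-fold), CSLC04 was at 1.00 log2 and CSLC6 at -0.20. CSLA03, of the mannan synthase family, was 2.18-fold higher. ATPMEPCRB had 23.6 and 52.4 and was at least 2.1-fold higher. The 6 genes that did not reach 2-fold included CSLC6. Of the 12, PMEPCRF and ATPMEPCRB were the 2 measured only on day 5, and these could not lie below 0.

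In the phenylpropanoid list, which leads to lignin and flavonoids, 4 genes were measured. HCT, an acyltransferase of lignin synthesis, had signals of 204, 237, 461 and 863 and was 2.26-fold higher on day 5. CCR2, a cinnamoyl-CoA reductase, had 14.3, 28.6, 117 and 142 and was at least 4.69-fold higher. DFR and UF3GT of the anthocyanin branch were within 2-fold. The tetraspanins, small membrane proteins, had 4 of 7 measured genes at least 2-fold higher and 1 lower by as much. TET5 had 43.1, 185, 360 and 464 (8.35-fold higher), TET8 177, 215, 554 and 768 (3.14-fold) and TET9 76.6, 165, 220 and 429 (2.87-fold), while TET3 had 93.8, 64.9, 19.2 and 19.5 and was at least 3.75-fold lower. TET2 was at least 3.04-fold higher, TET10 at 0.64 and TET7 at -0.42 log2. The list's median of 1.52 was 0.64 with a floor of 10 and 0.46 with none.

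Mitochondrion-encoded transcripts were higher as a group, with a median of 1.49 over 13 genes, 7 of them at least 2-fold higher and 0 lower by as much. ccb382, which acts in cytochrome c maturation, had signals of 221, 185, 1098 and 770 on days 1, 3, 5 and 7 and was 4.97-fold higher on day 5, and ccb452 of the same pathway had 204, 130, 796 and 531 (3.90-fold). cox1 and cox2, subunits of cytochrome oxidase, had 130 and 446 (3.44-fold) and 29.3 and 110 (3.75-fold). nad9, a subunit of respiratory complex I, had 67.1, 38.7, 232 and 151 (3.46-fold). Each of these genes was lower on days 1 and 3 than on days 5 and 7.

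Not every mitochondrial gene shared this. nad6 was at -0.55 log2, ccb206 at -0.22 and nad4L at 0.14, and the 6 measured probe sets of nad1 ran from -0.37 to 1.08. Leaving out ccb382 and nad5, which had been seen among the largest differences, gave a median of 0.72. Probe sets for these genes can also bind transcripts of the mitochondrial DNA copy in the nuclear genome. Nuclear genes of the tricarboxylic acid cycle, which feeds the same respiratory chain, had a median of -0.54 over 11 genes, with 10 below 0. AT5G08300 was the only one at least 2-fold lower, with 1198 and 584, and SDH2-1, the iron-sulfur subunit of succinate dehydrogenase, was at -0.58.

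Plastid-encoded genes were near their day 1 level as groups. Of 47 photosynthesis genes, 3 (6.38%) were at least 2-fold higher and 0 lower, where 8.24% of all genes were higher and 5.03% lower. The share of higher genes was thus no larger than over all genes. Their median was 0.16, which was -0.09 with arrays scaled to a common median. ycf3, for photosystem I assembly, had signals of 153, 90.8, 591 and 356 (3.87-fold higher), psbA, for the D1 protein of photosystem II, 145, 123, 505 and 768 (3.47-fold) and atpB of the ATP synthase 294, 616, 783 and 1482 (2.66-fold). Only these 3 reached 2-fold. Of 20 plastid genes for gene expression, rps4, a ribosomal protein, was the only one at least 2-fold different, lower with 1054 and 519, and rpoA, a polymerase subunit, was at -0.96.

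Low-oxygen genes show what passing over day 3 leaves out. Of 15 measured, 2 were at least 2-fold higher and 2 lower by as much on day 5 than on day 1, where 8.24% and 5.03% of all genes were, and the median was 0.42. AT4G27450 had signals of 32.2, 1377, 51.7 and 85.2 on days 1, 3, 5 and 7, and AT4G10270 had 36.4, 511, 54.6 and 39.6. Both were high on day 3 alone, with day 5 within 2-fold of day 1. AT5G42200 had 31.0, 126, 113 and 129 and was 3.64-fold higher on day 5, so it did not return. AT3G10020 had 110, 99.4, 40.4 and 54.0 and was 2.71-fold lower, AT5G44730 was 2.08-fold lower and AT1G72940 2.11-fold higher.

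Sugar use differed in a few genes rather than in groups. Glycolysis and fermentation had 0 of 12 genes at least 2-fold different, with TPI, triose phosphate isomerase, at 2008 and 2955 and PDC2, pyruvate decarboxylase, at 205 and 260. Of 16 genes of sugar starvation and amino acid breakdown, only AT5G19120 was at least 2-fold higher, with 13.6, 217, 133 and 321, and the branched-chain breakdown enzymes IVD and MCCB were at -0.27 and -0.37. The 4 starch genes were within 2-fold, APL3, an ADP-glucose pyrophosphorylase subunit, at 0.35.

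Sugar transport and sucrose genes held larger differences. Of 12 measured, 5 reached 25 only on day 5 and 1 only on day 1, which set the side of 0 on which they could lie. SWEET10, a sugar exporter, had signals of 7.10, 10.4, 222 and 427 and was at least 8.89-fold higher on day 5. ATSPS4F, a sucrose-phosphate synthase, had 2.38, 19.0, 202 and 212, at least 8.09-fold higher. SFP1, a sugar transporter-like protein, had 59.1, 47.4, 20.2 and 88.7 and was at least 2.37-fold lower. SWEET10 and ATSPS4F were above 25 only on days 5 and 7, and SFP1 was below 25 only on day 5. cwINV6, of the cell wall invertase family, was at least 2.33-fold higher.

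Among measured cell cycle genes, some of mitosis were at least 2-fold lower on day 5. Of 55 listed DNA replication genes, 8 were measured and 0 were at least 2-fold different. Over all genes, 8.24% were higher and 5.03% lower by as much, so 0 of 8 is near those shares. ICU2, the DNA-synthesising subunit of polymerase alpha, had signals of 170 and 292, and the histone chaperone ASF1B 219 and 123. The replication helicase subunit PRL had 508 and 489, and the topoisomerase TOPII 257 and 251. Of 19 mitosis genes, 3 were at least 2-fold lower, where 5.03% of all genes were, and 14 lay below 0 (median -0.39). BUB3.1, of the spindle checkpoint, had 182 and 82.4 (2.21-fold lower), AUR2, an Aurora kinase, 144 and 70.4 (2.05-fold) and AT2G36200 185 and 83.1 (2.22-fold), while BUBR1 of the same checkpoint was at 0.81 log2.

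Among 11 histone genes, the linker histone HIS1-3, known for its induction by drought, stood out with signals of 17.0, 12.8, 218 and 154, at least 8.71-fold higher on day 5. AT3G09480 was 2.16-fold lower, with 89.7 and 41.5. HTB2, a histone H2B, was at 0.91 log2. The remaining 8 were within 2-fold.

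Further genes with a symbol were among the largest upward differences. IAA18, a repressor of auxin response, had signals of 36.7, 78.6, 262 and 279 and was 7.13-fold higher on day 5. FMO, a flavin monooxygenase, had 122, 191, 828 and 1135 (6.77-fold), and DI19, a zinc finger protein known from drought, 112, 328, 677 and 745 (6.04-fold). These 3 were in rising order over the 4 arrays. PRA1.G2, of the prenylated Rab acceptor family, was 5.55-fold, FHL, which brings phytochrome A to the nucleus, 5.17-fold and SRC2, a C2 domain protein, 4.14-fold higher. MYBC1, a transcription factor, had 24.3, 157, 175 and 390 and was at least 7.02-fold higher.

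On the lower side, AGL28, a MADS-box transcription factor, had signals of 308, 74.7, 63.0 and 19.1 and was 4.88-fold lower on day 5. MPC, related to the end domain of poly(A)-binding proteins, had 134, 78.7, 30 and 18 (4.48-fold). FOLB2, of folate synthesis, had 192, 55.1, 68.3 and 44.1 (2.81-fold), and its relative FOLB1 was at least 2.12-fold lower. AGL28 and FOLB2 were already near their day 5 signal on day 3. PR-1-LIKE had 772, 849, 275 and 131 (2.81-fold lower), and SECE1, of the thylakoid Sec translocase, 75.8, 29.3, 28.3 and 7.03 (2.68-fold).

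The cyclophilin SQN was 2.64-fold, the transcriptional co-activator KIWI 2.53-fold, the pentatricopeptide protein PPR596 2.49-fold and AGL62, a MADS-box factor, 2.46-fold lower. GTR2, a glucosinolate transporter, was at least 3.28-fold lower. YUC6, an enzyme of auxin synthesis, had signals of 57.0, 22.4, 5.57 and 3.51 and was at least 2.28-fold lower. YUC6 was above 25 on day 1 alone.

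The largest upward differences of all annotated genes belonged to genes known only by a locus code, named here after their values were seen. AT4G34950 had signals of 19.7, 66.9, 1133 and 1322 and was at least 45.3-fold higher on day 5, and AT3G02910 had 23.4, 127, 1061 and 994, at least 42.4-fold. AT4G16563 had 33.7, 239, 597 and 1007 (17.7-fold higher). On the lower side AT3G15357 had 347, 140, 58.8 and 17.5 (5.90-fold) and AT3G08030 1662, 1090, 391 and 401 (4.25-fold). In AT4G34950 and AT3G02910 the step from day 3 to day 5 was the largest of the course.

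Day 7 against day 3 shares no array with day 5 against day 1 and spans the same number of days, beginning and ending later. Both spans contain the interval from day 3 to day 5, so a step there enters both ratios. The comparison is therefore not a second, separate interval, and how much of the sharing comes from the overlap was not tested. Of the 1308 probe sets at least 2-fold higher on day 5 than on day 1, 1289 were measured there, and 707 of them (54.8%) were at least 2-fold higher on day 7 than on day 3, where 8.20% of all probe sets were. Another 7 were at least 2-fold lower. Of the 704 lower probe sets, 690 were measured and 424 (61.4%) were at least 2-fold lower, where 7.10% of all were, and 4 were higher. The shared probe sets are 57.9% of all those higher and 40.1% of all those lower on day 7 against day 3. Over 13916 probe sets measured in both, the log2 ratios had a Pearson correlation of 0.74, given as a description since probe sets are not independent.

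List medians mostly had the same sign in both comparisons. Cytosolic ribosomal proteins had -1.18 on day 7 against day 3, ribosome assembly -0.99, mitochondrion-encoded genes 1.5, senescence and vacuolar proteases 1.26, class III peroxidases 0.77 and phosphate starvation 2.97. Tetraspanins had 0.14 there against 1.52 here, and heat shock proteins and chaperonins -0.29 against -0.71. Low-oxygen genes had -1.71, with 14 of 21 at least 2-fold lower, where 7.32% of all genes were, while their day 5 against day 1 median was 0.42. The plastid genes for gene expression had -1.02 there and -0.19 here.

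**Figure D4:**
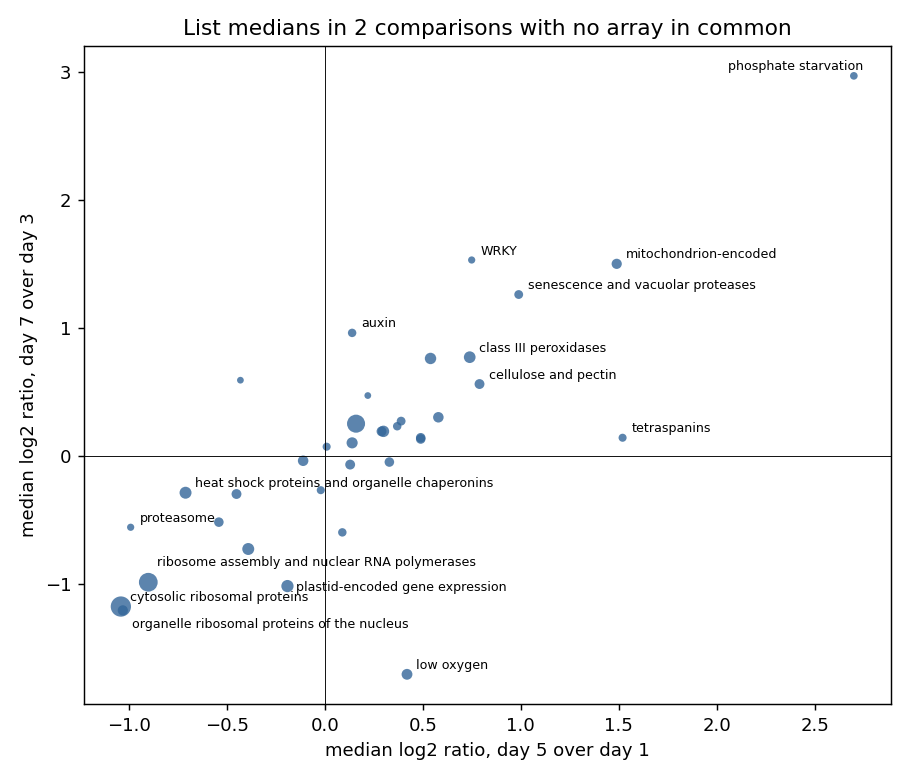
Median log2 ratio of each gene list on day 5 over day 1 (horizontal axis) and on day 7 over day 3 (vertical axis), 1 point a list with at least 4 measured genes in both, area growing with the number of genes. The 2 comparisons share no array, but both span days 3 to 5. Phosphate starvation lies at the top right, ribosomal protein lists at the bottom left and low oxygen (0.42 and -1.71) apart at the bottom.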

How the data were processed

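The authors deposited 1 linear signal intensity for each probe set on each array. Per the submitters' processing notes these were made with MAS5, in a version not given here. MAS5 scales each array by a constant, and the mean without the outer 2% of values on either side was 100.0 for all 4 arrays. A change in total RNA per cell leaves no trace in such values. Of 22810 probe sets, 64 controls were left out. Gene names come from the platform's annotation (14016 probe sets listed, 13513 of them with 1 gene, 503 with several, 8730 unnamed here) and RefSeq's TAIR10.1 gene table (13436 matched). A gene's value is the mean log2 ratio of its measured probe sets.

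The 44 gene lists and all members were chosen with earlier results of these data known. They were closed after the 70 lowest and 90 highest ratios of annotated probe sets had been seen (159 genes). After that, 3 symbols that had matched the wrong gene were taken out of the lists. Members known by locus code only were listed from general knowledge of those codes. Named genes are the 15 largest ratios in each direction with 25 or more on both arrays and the 5 largest with 1 array below it, among probe sets of 1 gene with a symbol and no cross-hybridisation suffix, plus the leading members of each list. Sequences were not used here, and the planned promoter search was not run. The counting was tested on simulated arrays. Alternatives were 4 scalings, 3 floors, other fold limits, no cross-hybridising probe sets and the brightest probe set per gene. Python 3.11.15, pandas 2.3.3, numpy 2.4.6, scipy 1.17.1 and matplotlib 3.10.9 were used.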

Additional observations from a re-analysis of the deposited data

How the results depend on the processing

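No paired analysis was possible because each day has 1 array. With 1 array a day nothing shows how far 2 cultures of the same age would differ, and dim probe sets carry the largest error. Probe sets at least 2-fold higher numbered 858 with arrays at a common median, 3178 without a floor, 2882 at a 1.5-fold limit and 510 at a 3-fold limit, and those lower 1364, 1906, 2067 and 109. Of 380 list medians under an alternative, 6 moved by more than 0.57 log2. Phosphate starvation was at 1.70 with a floor of 50 and 1.29 without the members seen beforehand, an alternative added after seeing the data, under which the mitochondrion-encoded genes were at 0.72. GH9 cellulases were at 0.81 without a floor, and tetraspanins at 0.64 with a floor of 10 and 0.46 without one. The cause was not tested, other than that a ratio against the floor moves with it. The 40 named genes by ratio were picked for their large ratios, and a floor cannot turn the sign of a ratio. That they kept their side of 0 in all 280 recomputed values was thus nearly set in advance. Of these values, 273 stayed at least 2-fold. SECE1 (-0.60), AGL62 (-0.33), TET3 (-0.91), GTR2 (-0.71), SFP1 (-0.24), YUC6 (-0.19) and FOLB1 (-0.09) did not with a floor of 50.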

Other observations

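Some gene families not described above held single large differences. BGLU46, a beta-glucosidase active on lignin precursors, had signals of 17.5, 37.2, 175 and 580 on days 1, 3, 5 and 7 and was at least 7.01-fold higher on day 5, and BGLU31 had 15.4, 6, 62.7 and 1.38, above 25 on day 5 alone. BGLU42 had 267, 151, 123 and 115 and was 2.18-fold lower. Over 9 measured beta-glucosidases the median log2 ratio was 0.39, but 4 of them reached 25 only on day 5 and could not lie below 0. Among 17 glycosyltransferases, UGT76B1 had 3.39, 3.87, 61.7 and 17.3 and was at least 2.47-fold higher, UGT78D2 at least 2.06-fold higher, UGT76C2, which conjugates cytokinins, 2.17-fold lower and UGT73B4 at least 2.1-fold lower. UGT73B4 had its highest signal, 122, on day 7. Of the 17, 6 were measured only on day 5 and 2 only on day 1, which set the side of 0 on which they could lie.

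Of 11 trichome birefringence-like genes, which act in the acetylation of wall polysaccharides, TBL36 had signals of 1629, 1323, 684 and 997 and was 2.38-fold lower on day 5, and TBL26 had 112, 108, 239 and 211 and was 2.12-fold higher. In the jasmonate list, MYC3, a transcription factor of that hormone's response, had 45.2, 51.7, 132 and 106 and was 2.92-fold higher. In the auxin list, HAT2, a homeodomain factor, was at 0.96 log2 with 186 and 361, while YUC2 and IAA30 were at 0.20 and 0.07. GSTU27, a glutathione transferase, was at least 2.35-fold higher.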
